A study of Mus with 2 samples.

Results

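Fibroblasts and adipocyte progenitors of interscapular brown adipose tissue (iBAT) were examined in droplet data on RNA of single nuclei (snRNA-seq). The nuclei were selected on their RNA: at least 1 unique molecular identifier (UMI, 1 counted RNA molecule) in at least 3 of 10 rule genes (*Lama2*, *Pdgfra*, *Gfpt2*, *Tmeff2*, *Medag*, *Egfr*, *Bicc1*, *Naaladl2*, *Dclk1* and *Nox4*), a UMI in at most 1 of 7 genes of other cell types (the endothelial *Adgrl4*, *Btnl9* and *Ptprb*, the mural *Trpc6* and *Abcc9*, the macrophage gene *Adgre1* and the T cell gene *Skap1*), and at most 25% mitochondrially encoded UMIs. Of 18266 nuclei, 559 met this rule and are called fibroblast-like. They comprised 161 of 9494 nuclei of *Wtap* flox/flox mice and 398 of 8772 nuclei of the library labelled *Wtap*-BKO, below called the BKO-labelled library.

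Both libraries came from C57BL/6 mice on normal chow at the age of 8 weeks, and nuclei of 4 mice were pooled in each. All mice carried *Wtap* alleles with loxP sites around exon 4, and *Wtap*-BKO mice also carried *Ucp1*-iCre, which is placed in the *Ucp1* locus and acts in brown adipocytes. Fibroblasts are thus not the cells the transgene targets. With 1 library per genotype there was no replicate, so no test between genotypes was possible and no p-value is given. Levels are UMIs scaled to 1000000 in all over the fibroblast-like nuclei of a library (CPM), and ratios are the BKO-labelled library over *Wtap* flox/flox on the log2 scale. All intervals are 95% intervals of counting error only, which do not cover the spread between mice, tissue pieces or nuclei.

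Fibroblasts of adipose tissue lie between adipocytes and along vessels, secrete the collagens, glycoproteins and proteoglycans of the matrix, and are marked by the receptor PDGFRA. Some of them are adipocyte progenitors: *Dpp4*- and *Pi16*-positive interstitial progenitors are held to be the less committed ones, and preadipocytes that express *Pparg*, *Fabp4* and *Lpl* the more committed ones. WTAP is the regulatory subunit of the complex that writes N6-methyladenosine (m6A) on mRNA.

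Fibroblast-like nuclei made up a larger share of the BKO-labelled library. Their share was 1.70% (exact binomial interval 1.45 to 1.98) in the flox/flox library and 4.54% (4.11 to 4.99) in the BKO-labelled library, a ratio of 2.68. Nuclei of the second library were deeper. Over nuclei of at least 1000 UMIs it was 2.10% (1.70 to 2.58) and 5.79% (5.21 to 6.42), and at equal depth, with every nucleus thinned to 500 UMIs, it was 0.790% (0.622 to 0.989) and 2.28% (1.98 to 2.61). The ratio stood at 2.75 and 2.89, respectively. Among nuclei with at most 5% mitochondrially encoded UMIs the shares were further apart, at 2.19% and 10.7%. Over all nuclei the median share of such UMIs was 3.47% and 8.44%, so this limit left out a larger part of the BKO-labelled library. Over nuclei outside the adipocyte rule defined below, fibroblast-like nuclei made up 5.52% (4.72 to 6.41) of 2916 and 9.62% (8.74 to 10.6) of 4138 nuclei. A share of nuclei does not give a number of cells.

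**Figure D1:**
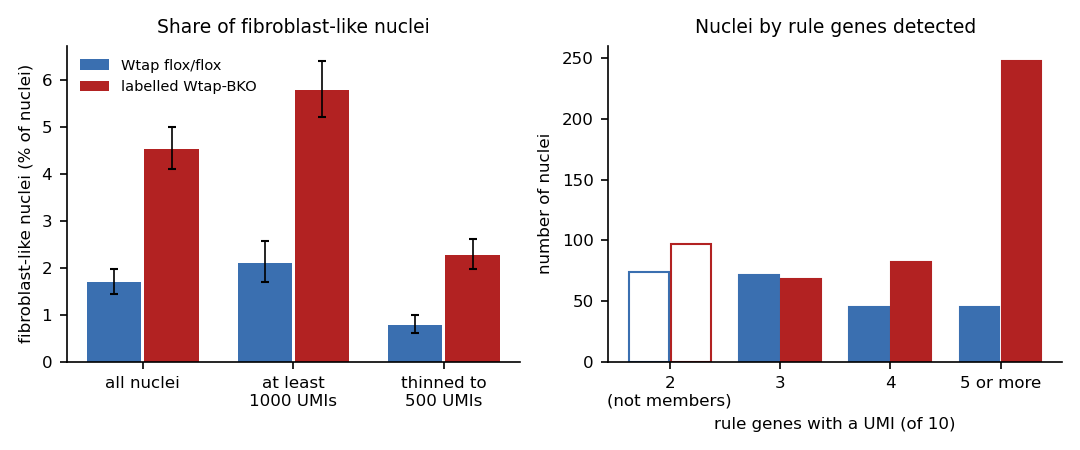
Left, fibroblast-like nuclei as a percentage of nuclei (bars, with exact binomial 95% intervals) over all nuclei, over nuclei of at least 1000 UMIs, and over all nuclei after thinning to 500 UMIs. Right, number of nuclei by how many of the 10 rule genes had a UMI, with open bars for nuclei with 2, which fall outside the rule. The share stands at 1.70% and 4.54% over all nuclei, and nuclei with 5 or more rule genes number 45 in the *Wtap* flox/flox library and 248 in the BKO-labelled library.

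The depth of the selected nuclei differed between the libraries. They had a median of 1091 UMIs and 699 genes in the flox/flox library and 1910.5 UMIs and 1083.5 genes in the BKO-labelled library, and summed to 201621 and 906070 UMIs. The median share of mitochondrially encoded UMIs was 2.91% and 4.36%, and 13.7% and 40.5% of the nuclei were over 5%. Of 20 barcodes that both libraries held, 2 were fibroblast-like in 1 library and 0 in both. Just outside the rule, 74 and 97 nuclei had a UMI in 2 rule genes. Their 20 other fibroblast markers summed to 4984 and 4969 CPM, below the 6886 and 11651 CPM of the 71 and 68 nuclei just inside it with 3 rule genes. The limit on excluded genes left out 2 and 15 nuclei, and the limit on mitochondrial UMIs 2 in each library.

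The label was checked on fibroblast markers that the rule did not use. Of 20 other fibroblast markers, 19 had UMIs in both libraries, and *Tcf21* was at 0 in both. Together they reached 7246 and 12244 CPM in fibroblast-like nuclei, against 513 and 1529 CPM over all nuclei of the 2 libraries, and at least 3 of them were detected in 86.3% and 97.2% of fibroblast-like nuclei. Mesothelial and tendon markers summed to under 5 CPM in each library, with the mesothelial *Msln*, *Upk3b* and *Wt1* and the tendon gene *Tnmd* at 0. Smooth muscle markers summed to 59.5 and 39.7 CPM, against 50.6 and 61.1 CPM over all nuclei. Of these, *Cnn1* and *Myocd* were at 0 and *Mylk* at 39.7 and 23.2 CPM. Skeletal muscle markers summed to 44.6 and 29.8 CPM, against 21.0 and 51.6 CPM over all nuclei. Adipocyte RNA was present too. The 12 adipocyte markers summed to 5550 and 5457 CPM, against 12490 and 12263 CPM over all nuclei, and 65.2% and 73.1% of fibroblast-like nuclei had at least 3 of them. The endothelial, mural and macrophage lists share genes with the rule, which were left out here. The 7 remaining endothelial markers summed to 546 and 537 CPM, against 498 and 434 CPM over all nuclei, and *Mecom* alone accounted for 377 and 372 CPM in fibroblast-like nuclei. The 8 remaining mural markers summed to 570.4 and 586 CPM, against 369 and 261 CPM over all nuclei, and the 9 remaining macrophage markers to 164 and 277 CPM, against 209 and 839.5 CPM. At least 3 genes of the list were detected in 0 and 7 nuclei for the endothelial, 6 and 26 nuclei for the mural and 0 and 12 nuclei for the macrophage list. Schwann cell markers summed to 704 and 669 CPM, against 165 and 198 CPM over all nuclei. Of these 10 markers 7 and 9 had a UMI, *Sox10* was at 0 in both, and at least 3 were detected in 1 and 8 nuclei. Lymphocyte markers outside the rule and without *Ebf1*, which adipocyte progenitors also express, summed to 49.6 and 113 CPM. With *Ebf1* included, at least 3 of them were detected in 1 and 8 nuclei. Free RNA and doublets were not removed by the rule, and their part in the results below was not tested.

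Genes outside the lists were ranked by how far their level in fibroblast-like nuclei exceeded that in other nuclei. For this, 3 sets of nuclei were taken from the same libraries by at least 3 markers of their own and by the absence or near absence of rule genes of the others: 625 and 593 endothelial, 316 and 181 mural and 6578 and 4634 adipocyte nuclei. Among genes outside all lists, the 10 with the highest ratio of CPM over the mean of these sets, taking for each gene the lower ratio of the 2 libraries, were *Nova1*, *Pcdh9*, *Smoc2*, *Lpar1*, *Ifi205*, *Sdk1*, *Lvrn*, *Pcdh7*, *Gpm6b* and *Dpep1*. *Dpep1*, a membrane dipeptidase, had 639.8 and 593 CPM in fibroblast-like nuclei, against 11.99 and 25.3 CPM as the mean of the other sets. For *Smoc2*, a matricellular protein, these values were 268 and 295 CPM against 5.78 and 9.32 CPM. *Ifi205* has close relatives in its gene family, so its reads may be split among them. This ranking asks for a high ratio in both libraries, used all genes of nuclei chosen by their RNA and is a description.

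The targeted gene comes first among the comparisons. *Wtap* (ENSMUSG00000060475, mm10 chr17:12966799-12992543) had 18 UMIs in fibroblast-like nuclei of the flox/flox library, 89.3 CPM (52.9 to 141), and 51 UMIs in those of the BKO-labelled library, 56.3 CPM (41.9 to 74.0). The log2 ratio was -0.67 with an interval of -1.47 to 0.20, so a difference was not detectable at this depth, and thinning each nucleus to 500 UMIs put it at 0.20. In adipocyte nuclei *Wtap* stood at 50.8 and 48.8 CPM. The assay counts the 3' ends of transcripts, which lie outside the floxed exon 4, so the level of *Wtap* does not check the labels. Of the m6A machinery, 6 of 10 genes had at least 20 UMIs, 3 were higher and 3 lower, and 0 differed by 2-fold or more. The demethylase gene *Fto* had 288 and 391 CPM, a log2 ratio of 0.44 (0.04 to 0.87).

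The rule genes differed unevenly between the libraries, although all of them were used to choose the nuclei, so their values are a description. *Lama2*, a laminin chain of basement membranes, had 1498 CPM (302 UMIs) in the flox/flox library and 1595 CPM (1445 UMIs) in the BKO-labelled library. *Pdgfra*, the receptor that defines the lineage (chr5:75151322-75198206), had 362 and 359.8 CPM, and the EGF receptor gene *Egfr* had 1269.7 and 1151 CPM. *Nox4*, *Tmeff2* and *Lama2* all lay within 0.1 of a log2 ratio of 0. *Gfpt2*, which encodes the entry enzyme of the hexosamine pathway (chr11:49794155-49838620), had 14 UMIs in 12 of 161 nuclei, 69.4 CPM, against 478 UMIs in 135 of 398 nuclei, 528 CPM. It was detected in 7.45% and 33.9% of fibroblast-like nuclei, and in 7.61% and 25.7% of those thinned to 1000 UMIs. *Dclk1* (184 and 362 CPM), *Medag* (208 and 339 CPM) and *Naaladl2* (575 and 931 CPM) were also higher in the BKO-labelled library, but the ratio of *Dclk1* was -0.08 and that of *Medag* 0.16 with each nucleus thinned to 500 UMIs.

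Across all genes, more were higher than lower in fibroblast-like nuclei of the BKO-labelled library. Of 7807 genes with at least 20 UMIs, 4391 (56.2%) had a log2 ratio above 0, 1068 (13.7%) were at least 2-fold higher and 373 (4.78%) at least 2-fold lower, and the median was 0.10. Among 4423 genes with at least 50 UMIs, 451 (10.2%) were at least 2-fold higher and 114 (2.58%) at least 2-fold lower. The interval lay above 0 for 361 of the 451 and below 0 for all 114. The limit was on UMIs of both libraries together, 201621 in the flox/flox and 906070 in the BKO-labelled library. Genes high in the latter thus passed it more readily, in the lists as among all genes. With no filter beyond 1 UMI, 1559 genes were at least 2-fold higher and 946 at least 2-fold lower. The percentages at 20 UMIs are the background for each list below and share this limit.

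Fibrillar collagens, proteoglycans and matrix proteases were more often higher in the BKO-labelled library than all genes were, while other collagens and collagen processing genes lay closer to the background. Of 9 fibrillar collagens, 7 could be counted, all 7 were higher against the background of 56.2%, and 0 were 2-fold higher, with a median log2 ratio of 0.33. *Col1a1* (chr11:94936224-94953042), a chain of collagen I, had 957 CPM (193 UMIs in 67 of 161 nuclei) and 1796 CPM (1627 UMIs in 304 of 398 nuclei), a log2 ratio of 0.91 (0.69 to 1.13). Its partner chain *Col1a2* had 759 and 1489.95 CPM, a log2 ratio of 0.97 (0.73 to 1.22). *Col3a1*, the chain of collagen III, differed less, with 1275 and 1577 CPM and a log2 ratio of 0.31 (0.11 to 0.50), which was 0.00 when the rule was applied to thinned nuclei. *Col5a3* was close to even at 734 and 759 CPM. After thinning to 1000 UMIs, *Col1a1* was detected in 42.4% (32.1 to 53.1) of 92 and 64.7% (59.4 to 69.8) of 343 fibroblast-like nuclei, against 1.80% and 5.39% of adipocyte nuclei. The ratio of *Col1a1* was 0.44 over nuclei with at most 5% mitochondrial UMIs.

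Other collagens were mixed. Of 15 counted genes of this list 10 were higher, 4 of them by 2-fold or more. The median was 0.25, and 0.02 when the rule was applied to thinned nuclei. Basement membrane collagen *Col4a1* had 927 and 1173 CPM, *Col15a1* 506 and 583 CPM, and *Col4a4* 19.8 and 77.3 CPM with a log2 ratio of 1.96 (0.54 to 3.88). *Col12a1*, named after its value was seen, was the 1 gene at least 2-fold lower, with 10 and 20 UMIs, a ratio of -1.17 (-2.33 to 0.09). *Col14a1*, a collagen of fibril surfaces, had 164 and 115 CPM. Of 20 counted genes of collagen processing 12 were higher and 1 was 2-fold higher, *Serpinh1*, the collagen chaperone, with 49.6 and 184 CPM and a log2 ratio of 1.89 (0.98 to 2.98). *Bmp1*, a procollagen proteinase, went the other way at 273 and 201 CPM.

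Among glycoproteins and proteoglycans, the matricellular gene *Sparc* had 352 and 617 CPM, a log2 ratio of 0.81 (0.45 to 1.19), and the small proteoglycan decorin gene *Dcn* 848 and 1069 CPM, a ratio of 0.33 (0.10 to 0.58). Of 30 counted glycoproteins 21 were higher and 8 were 2-fold higher, with a median of 0.34, and of 15 proteoglycans 12 and 3, with a median of 0.49. In endothelial, mural and adipocyte nuclei, in this order, the medians were 0.48, 0.40 and 0.18 for glycoproteins and 0.77, 0.44 and 0.66 for proteoglycans. *Vcan*, a large proteoglycan, had 34.7 and 108 CPM. *Tnxb*, tenascin X, was near even with 744 and 684 CPM. *Tnc*, tenascin C, had 1 and 95 UMIs, but 62 of the 95 lay in 1 nucleus, and only 12 of 398 nuclei had any. Its log2 ratio was 4.40 (1.89 to 9.72). Without the nucleus with the most UMIs in each library it had 0 and 33 UMIs, a ratio of at least 1.29 with the library at 0 set to 3 UMIs.

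Matrix proteases and their inhibitors had a higher median than the matrix lists above. Of 25 counted genes 19 were higher, 11 were 2-fold higher and 0 were 2-fold lower, with a median of 0.71. The median of this list was 0.80 in endothelial, 0.18 in mural and 0.65 in adipocyte nuclei. *Timp3*, an inhibitor of matrix metalloproteinases, had 575 and 1223 CPM, a log2 ratio of 1.09 (0.81 to 1.38), which was 0.52 in the nuclei with less adipocyte marker RNA. *Fap*, the fibroblast activation protein, had 263 and 471 CPM, a ratio of 0.84 (0.43 to 1.28). *Mmp3*, stromelysin, had 1 UMI against 75 UMIs in 25 nuclei, a ratio of 4.06 with a wide interval of 1.54 to 9.38. Without the nucleus with the most UMIs in each library it had 0 and 63 UMIs, a ratio of at least 2.22. *Adamts10* was lower, with 377 and 215 CPM and a ratio of -0.81 (-1.20 to -0.41). Of 18 myofibroblast genes 11 could be counted, 9 were higher and 4 were 2-fold higher, and the interval lay above 0 for 3. The highest was *Tnc*, with most of its UMIs in 1 nucleus.

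**Figure D2:**
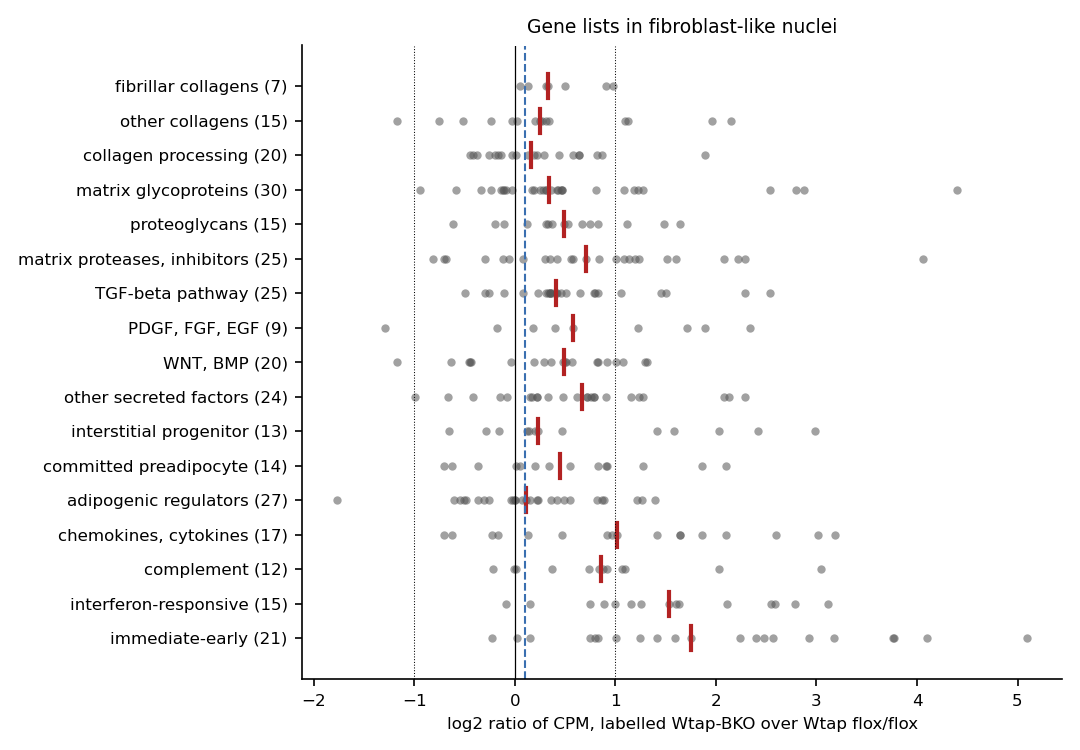
Log2 ratio of CPM in fibroblast-like nuclei, BKO-labelled library over *Wtap* flox/flox, for each gene with at least 20 UMIs (grey points), by list with the number of genes counted in brackets. Red bars are list medians, the dashed line is the median of all genes at 0.10 and dotted lines mark 2-fold. Fibrillar collagens have a median of 0.33, and immediate-early genes one of 1.75.

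The most abundant fibroblast marker outside the rule differed more than the fibrillar collagens. *Gsn*, gelsolin, an actin-severing protein, had 2479.9 CPM (500 UMIs in 140 of 161 nuclei) in the flox/flox library and 6099 CPM (5526 UMIs in 392 of 398 nuclei) in the BKO-labelled library, a log2 ratio of 1.30 (1.17 to 1.43). It was higher in the endothelial (218 and 656 CPM), mural (173 and 792 CPM) and adipocyte nuclei (144 and 444 CPM) as well. Of the 19 other fibroblast markers counted, 18 were higher and 6 were 2-fold higher, with a median of 0.62. *Abca8a*, a transporter gene, was the exception at 1171 and 1121 CPM.

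Signalling genes of the fibroblast-like nuclei were listed by family, and the families were not tested against each other. In the TGF-beta list 21 of 25 counted genes were higher and 5 were 2-fold higher, with a median of 0.41. The median of this list was 0.65 in endothelial, 0.19 in mural and 0.20 in adipocyte nuclei. *Thbs1*, thrombospondin 1, which can activate latent TGF-beta, had 49.6 CPM (10 UMIs) and 288 CPM (261 UMIs), a log2 ratio of 2.54 (1.64 to 3.62). After thinning it was detected in 6.52% and 17.5% of fibroblast-like nuclei, against 0.126% and 0.43% of adipocyte nuclei. *Ski*, which encodes a repressor of SMAD signalling, was lower with 312 and 222 CPM. In the WNT and BMP list 14 of 20 were higher and 4 were 2-fold higher, with a median of 0.49, against 0.56 in endothelial, 0.34 in mural and 0.29 in adipocyte nuclei. *Bmper*, a BMP-binding secreted protein, had 565 and 1003 CPM, a ratio of 0.83 (0.54 to 1.12), and *Fst*, follistatin, 64.5 and 160.0 CPM, a ratio of 1.31 (0.49 to 2.26). Of 9 YAP target genes 5 were higher, 1 of them 2-fold, *Ccn1*, with 4 and 244 UMIs, and the median was 0.17. When the rule was applied to thinned nuclei, the medians were 0.88 for YAP targets, 0.58 for TGF-beta and 0.64 for WNT and BMP.

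Among growth factors and their receptors, 7 of 9 counted genes of the PDGF, FGF and EGF list were higher, 4 were 2-fold higher and 1 was 2-fold lower, with a median of 0.58. *Fgf10* (chr13:118714699-118792573), a mesenchymal growth factor for preadipocytes, had 134 CPM (27 UMIs in 16 of 161 nuclei) and 497 CPM (450 UMIs in 125 of 398 nuclei), a log2 ratio of 1.89 (1.33 to 2.51), which was 1.09 in the nuclei with less adipocyte marker RNA. Thinned nuclei with an *Fgf10* UMI made up 13.04% (6.93 to 21.7) and 23.6% (19.2 to 28.5), intervals that overlap, against 0.41% and 0.573% in adipocyte nuclei. *Fgf2* had 14.9 and 75.05 CPM, from 3 and 68 UMIs. The receptor gene *Fgfr1* was near even at 203 and 231 CPM, and *Erbb4*, a neuregulin receptor gene, was lower with 278 and 114 CPM, a ratio of -1.29 (-1.77 to -0.79). *Erbb4* was at 701 and 593 CPM in adipocyte nuclei, above its level in fibroblast-like nuclei. Of 24 other secreted factors 19 were higher and 6 were 2-fold higher. The axon guidance gene *Slit3* was abundant, with 1830.2 and 2308 CPM, a ratio of 0.33 (0.17 to 0.50). *Slit2* had 49.6 and 217 CPM, with 63 of its 197 UMIs in 1 nucleus. *Vegfa* had 1121 and 562 CPM, a ratio of -0.997 (-1.23 to -0.76), with 3067 and 1438 CPM in adipocyte nuclei.

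**Figure D3:**
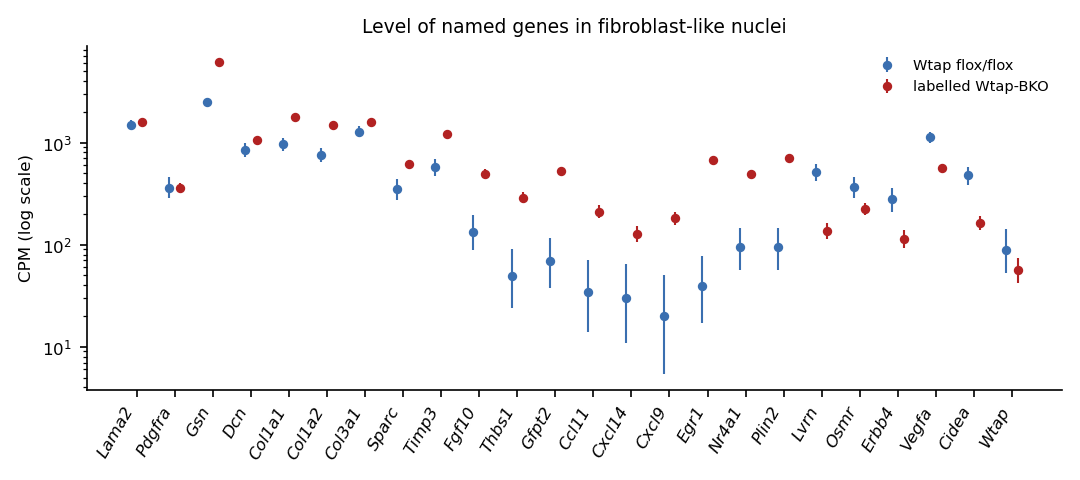
CPM (log scale) of named genes in fibroblast-like nuclei of each library, with exact Poisson 95% intervals as vertical lines. *Lama2* and *Pdgfra* sit at like levels, *Gsn* stands at 2479.9 and 6099 CPM, and *Lvrn*, *Osmr*, *Erbb4*, *Vegfa* and *Cidea* are lower in the BKO-labelled library.

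Genes of adipocyte commitment did not move together. Of 27 counted adipogenic regulators 17 were higher and 10 lower, 3 were 2-fold higher and 1 was 2-fold lower, with a median of 0.12 close to the 0.10 of all genes. When the rule was applied to thinned nuclei, 20 were higher and the median was 0.38. The early B cell factor genes, which act early in the adipocyte lineage, were near even: *Ebf1* had 2515 and 2937 CPM and *Ebf2* 1245 and 1212 CPM. *Nfia* had 1557 and 1541 CPM. *Cebpa*, a factor of terminal differentiation, had 5 and 59 UMIs, a ratio of 1.39 (0.09 to 3.07), which was 0.41 when the rule was applied to thinned nuclei. *Ppargc1a*, the coactivator of mitochondrial biogenesis, had 342 and 100.4 CPM, a ratio of -1.77 (-2.24 to -1.30). *Pparg*, the master regulator of adipocytes, had 927 and 717 CPM, a ratio of -0.37 (-0.61 to -0.13), which was -0.01 in the nuclei with less adipocyte marker RNA and 0.00 when the rule was applied to thinned nuclei. In adipocyte nuclei these were 949 and 390.1 CPM for *Ppargc1a* and 2807 and 1305 CPM for *Pparg*, higher than in fibroblast-like nuclei in both libraries and lower in the BKO-labelled library.

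Of the markers of progenitor stages, more were higher than lower. Of 13 counted interstitial progenitor genes 10 were higher and 5 were 2-fold higher, with a median of 0.23, which was 0.94 in the nuclei with less adipocyte marker RNA. *Pi16*, the defining marker, had 188 and 155 CPM, *Fndc1* 441 and 488 CPM, and *Ly6c1*, which has a near-identical neighbour gene, 2 and 71 UMIs. Of 14 committed preadipocyte genes 11 were higher and 3 were 2-fold higher, with a median of 0.45, which was 0.15 in the nuclei with less adipocyte marker RNA. *Lpl*, lipoprotein lipase, had 734 and 1378 CPM, a ratio of 0.91 (0.66 to 1.16), which was 0.38 in the nuclei with less adipocyte marker RNA. *Lpl* is itself 1 of the 12 adipocyte markers by which those nuclei were chosen, so that value is partly set by the choice. *Fabp4*, a fatty acid binding protein, had 1076 and 1579 CPM, below the 1491 and 3444 CPM of adipocyte nuclei. *Cxcl14* had 29.8 and 128 CPM, a ratio of 2.11 (0.94 to 3.58), and *Apoe* 417 and 255 CPM, a ratio of -0.71 (-1.07 to -0.33), which was -0.08 with each nucleus thinned to 500 UMIs. Of 11 genes of the *F3*-positive adipogenesis-regulating list 7 were higher and 4 were 2-fold higher, and *F3*, tissue factor, had 164 and 383 CPM, a ratio of 1.23 (0.71 to 1.79), which was 0.81 when the rule was applied to thinned nuclei.

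The lipid droplet coat gene *Plin2* was among the genes furthest apart. It had 94.2 CPM (19 UMIs) in the flox/flox library and 704 CPM (638 UMIs) in the BKO-labelled library, a log2 ratio of 2.90 (2.25 to 3.64). Thinned nuclei with a *Plin2* UMI made up 5.43% (1.79 to 12.2) and 43.4% (38.1 to 48.9) of fibroblast-like nuclei, and 15.1% and 40.9% of adipocyte nuclei. These shares of fibroblast-like nuclei lie below or close to those of adipocyte nuclei. In the fibroblast-like nuclei with less adipocyte marker RNA the log2 ratio of *Plin2* was 2.49. *Irs2*, an adaptor of the insulin receptor, had 44.6 and 324 CPM, a ratio of 2.86 (1.92 to 4.00). *Cidea*, a brown adipocyte gene, had 476 and 163 CPM and *Acsl1*, an acyl-CoA synthetase gene, 1523 and 779 CPM. Both were higher in adipocyte nuclei, at 887 and 588 CPM for *Cidea* and 4695 and 3361 CPM for *Acsl1*.

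Chemokine and cytokine genes were higher in fibroblast-like nuclei of the BKO-labelled library. Of 17 counted genes 13 were higher and 9 were 2-fold higher, with a median of 1.01, which was 0.49 in the nuclei with less adipocyte marker RNA. In endothelial nuclei 9 of 9 and in adipocyte nuclei 18 of 20 counted genes of this list were higher, with medians of 1.30 and 1.60, and in mural nuclei 4 of 6 with a median of 0.51. Over all genes outside the rule, 67.3% were higher in endothelial, 54.8% in mural and 58.4% in adipocyte nuclei, with medians of 0.25, 0.05 and 0.13. *Ccl11*, eotaxin, had 34.7 CPM (7 UMIs in 7 nuclei) and 211 CPM (191 UMIs in 107 nuclei), a log2 ratio of 2.60 (1.53 to 3.94). It was detected in 4.35% (1.197 to 10.8) and 17.8% (13.9 to 22.2) of thinned fibroblast-like nuclei, against 0.0947% and 0.401% of adipocyte nuclei. *Ccl2*, a monocyte chemoattractant, had 3 UMIs in 1 nucleus and 109 UMIs in 35 nuclei, a ratio of 3.02 (1.43 to 5.32). *Cxcl9*, an interferon-induced chemokine, had 4 and 164 UMIs, 19.8 and 181 CPM, a ratio of 3.19 (1.81 to 5.08), which was 1.72 when the rule was applied to thinned nuclei, and was also higher in adipocyte nuclei at 6.67 and 63.8 CPM. The interleukin 1 receptor gene *Il1r1* had 347 and 657 CPM, a ratio of 0.92 (0.56 to 1.30), which was 0.33 in the nuclei with less adipocyte marker RNA, while *Osmr*, the oncostatin M receptor gene, was lower with 367 and 225 CPM, a ratio of -0.71 (-1.10 to -0.30). *Osmr* was higher in the BKO-labelled library in the endothelial (79.2 and 138 CPM) and mural nuclei (98.6 and 156 CPM).

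Interferon-responsive and complement genes were also higher. Of 15 counted interferon-responsive genes 14 were higher and 10 were 2-fold higher, with a median of 1.53, which was 0.91 with at least 4 rule genes. *B2m*, the light chain of MHC class I, had 223 and 693 CPM, a ratio of 1.63 (1.20 to 2.10). *Iigp1*, an interferon-inducible GTPase gene, had 352 and 701 CPM, with 64 of its 635 UMIs in 1 nucleus, and its ratio of 0.99 was 0.19 when the rule was applied to thinned nuclei. *H2-Ab1*, an MHC class II gene of antigen-presenting cells, had 0 UMIs in the flox/flox library and 98 UMIs in 50 nuclei of the BKO-labelled library, a log2 ratio of at least 2.86 when the library at 0 is set to 3 UMIs. The bound was 1.84 when 10 and 57 nuclei with 3 or more markers of another class were left out, and 0.27, from 0 and 21 UMIs, when the rule was applied to thinned nuclei. In endothelial and adipocyte nuclei *H2-Ab1* was also higher, at 22.6 and 117 and at 19.2 and 139 CPM. Of 12 complement genes 10 were higher and 4 were 2-fold higher, with a median of 0.86, which was 0.24 when the rule was applied to thinned nuclei. The medians were 1.35 in endothelial, 0.08 in mural and 1.38 in adipocyte nuclei. In fibroblast-like nuclei *C3* had 288 and 515 CPM, a ratio of 0.84 (0.45 to 1.26).

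Immediate-early genes, which are transcribed within minutes of a stimulus, had the highest median among lists with more than 2 counted genes. Of 21 counted genes 20 were higher and 15 were 2-fold higher, with a median of 1.75, and their summed level was 615 and 3267 CPM. *Egr1*, a zinc finger factor, had 8 UMIs in 8 of 161 nuclei, 39.7 CPM, and 616 UMIs in 255 of 398 nuclei, 679.9 CPM, a log2 ratio of 4.10 (3.11 to 5.32). *Nr4a1*, an orphan nuclear receptor gene, had 94.2 and 496 CPM, a ratio of 2.39 (1.73 to 3.14). *Junb*, with 1 and 154 UMIs, had a ratio of 5.10 with an interval of 2.60 to 10.4. Without the nucleus with the most UMIs in each library it had 0 and 148 UMIs, a ratio of at least 3.45. *Jun*, by contrast, was even at 44.6 and 45.3 CPM. At least 2 immediate-early genes were detected in 7.61% (3.11 to 15.1) and 64.7% (59.4 to 69.8) of thinned fibroblast-like nuclei.

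The same was seen in the other nuclei of the 2 libraries. At least 2 immediate-early genes were detected in 17.6% and 70.0% of endothelial, 9.09% and 50.5% of mural and 6.28% and 29.8% of adipocyte nuclei. The median ratio of the list was 1.74 in endothelial, 2.69 in mural and 1.81 in adipocyte nuclei. Interferon-responsive genes had medians of 1.09, 1.53 and 1.76, in the same order. With 1 library per genotype, any other difference between the libraries cannot be told apart from genotype. Fibrillar collagens had a higher median in endothelial (2.01) and adipocyte nuclei (1.27) than in fibroblast-like (0.33) and mural nuclei (0.31), at lower levels: *Col1a1* stood at 39.0 and 157 CPM in endothelial and 24.1 and 65.3 CPM in adipocyte nuclei.

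**Figure D4:**
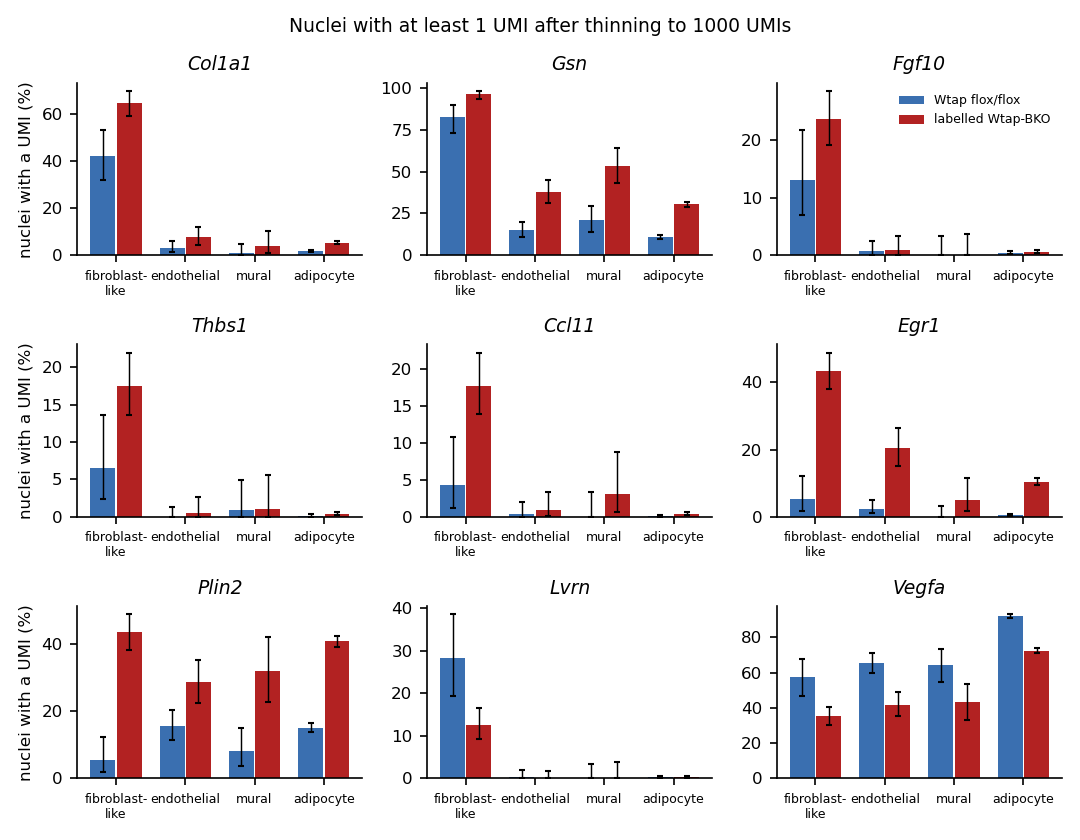
Percentage of nuclei with at least 1 UMI of the named gene after each nucleus was thinned to 1000 UMIs, in fibroblast-like nuclei and in endothelial, mural and adipocyte nuclei, with exact binomial 95% intervals. *Fgf10*, *Thbs1*, *Ccl11* and *Lvrn* were detected mainly in fibroblast-like nuclei, whereas *Plin2* and *Vegfa* were as frequent or more frequent in adipocyte nuclei.

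Of the 12 genes with the highest ratios outside the rule, among those with at least 100 CPM in 1 library and 50 UMIs in all, those with at least 10 UMIs elsewhere pointed the same way in the endothelial, mural and adipocyte nuclei, apart from *Tnc* in mural nuclei. *Efemp1*, a fibulin gene, reached 10 UMIs in adipocyte nuclei alone. In fibroblast-like nuclei it had 3 and 94 UMIs, a ratio of 2.80 (1.21 to 5.11), and a ratio of 0.67 in adipocyte nuclei. *Btg2*, an antiproliferative gene, had 4 and 137 UMIs, a ratio of 2.93, and *Nr4a3* 5 and 307 UMIs, a ratio of 3.77.

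The genes with the lowest ratios included genes with low and genes with high levels in adipocyte nuclei. *Lvrn*, a membrane aminopeptidase gene, was of the former kind. It had 511 CPM (103 UMIs in 57 of 161 nuclei) and 136 CPM (123 UMIs in 75 of 398 nuclei), a log2 ratio of -1.91 (-2.30 to -1.52), against 5.85 and 2.74 CPM in adipocyte nuclei. Thinned nuclei with a *Lvrn* UMI made up 28.3% (19.4 to 38.6) and 12.5% (9.22 to 16.5). *Npas2*, a clock transcription factor gene, had 144 and 27.6 CPM, a ratio of -2.38 (-3.21 to -1.56), against 14.3 and 1.83 CPM in adipocyte nuclei. *Fgf14* had 149 and 32.0 CPM, a ratio of -2.22 (-3.00 to -1.43). *Ivns1abp* had 828 and 189 CPM, a ratio of -2.13 (-2.45 to -1.82), and *Pmepa1*, an inhibitor of TGF-beta signalling, 481 and 134 CPM, a ratio of -1.85 (-2.25 to -1.45), which was -0.94 in the nuclei with less adipocyte marker RNA. Both were more abundant in adipocyte nuclei, at 2272 and 781 CPM for *Ivns1abp* and 1426 and 349 CPM for *Pmepa1*, and were lower there too in the BKO-labelled library. Of the 12 lowest, *Ivns1abp*, *Pmepa1*, *Acss1*, *Rgs2*, *Xrcc6*, *Ganc*, *Ppargc1a*, *A530020G20Rik* and *A530065N20Rik* were lower in endothelial, mural and adipocyte nuclei alike. *Npas2* was higher in endothelial and *Fgf14* in mural nuclei, and *Lvrn* reached 10 UMIs in adipocyte nuclei alone.

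Fibroblast-like nuclei also varied among themselves within each library. The 9 fibrillar collagens took a median of 0.379% of the UMIs of a nucleus in the flox/flox library (quartiles 0.209 and 0.628) and 0.555% in the BKO-labelled library (0.367 and 0.922), with single nuclei up to 2.64% and 9.54%. Adipocyte markers took a median of 0.393% and 0.379%. Immediate-early genes were at 0 UMIs in 45.3% and 3.02% of fibroblast-like nuclei. These shares were not taken at equal depth, and the nuclei of the BKO-labelled library were deeper. Among thinned fibroblast-like nuclei, 47.8% (37.3 to 58.5) in the flox/flox library had a UMI of an immediate-early gene. In the BKO-labelled library this share was 86.3% (82.2 to 89.8).

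Nuclei with a UMI in at least 2 of 16 interstitial progenitor genes were set against the other fibroblast-like nuclei of the same library. They numbered 45 of 161 and 153 of 398, or 28.0% and 38.4%, and at equal depth of 1000 UMIs 27.2% and 25.1%. They were deeper than the others, with medians of 1157 against 1010 UMIs and 2386 against 1580 UMIs. This split rests on RNA of the same nuclei, so it is a description. Of 136 list genes compared, 103 had the same sign in both libraries, 16 had intervals above 0 in both and 11 below 0 in both. Fibronectin (*Fn1*) had the highest ratio of progenitor-marked over other nuclei in both libraries. It had 308 against 14.3 CPM in the flox/flox library and 274 against 34.7 CPM in the BKO-labelled library. Fibrillin 1 (*Fbn1*), a microfibril component, had 746 against 171 CPM and 737 against 239 CPM. *Col14a1* had 422 against 50.002 CPM and 187 against 53.1 CPM. Genes of the remaining nuclei included *Col15a1*, with 146 against 664 CPM and 389 against 747 CPM, *Mgp*, an inhibitor of calcification, with 16.2 against 171 CPM and 40.8 against 114 CPM, and *Fgf10*, with 48.7 against 171 CPM and 404 against 576 CPM. On both sides of the split *Fgf10* stood higher in the BKO-labelled library.

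**Figure D5:**
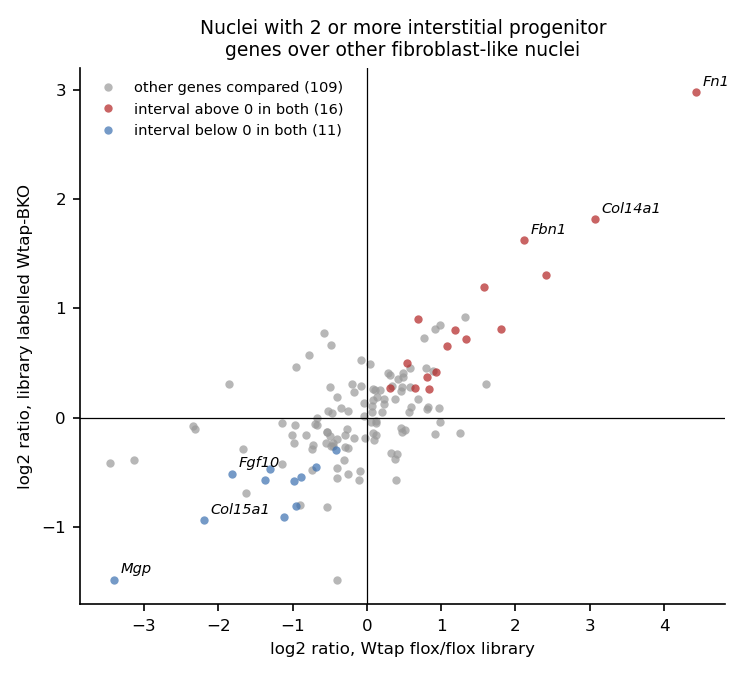
Log2 ratio of CPM between fibroblast-like nuclei with at least 2 interstitial progenitor genes and the other fibroblast-like nuclei, for 136 list genes, in the *Wtap* flox/flox library (x axis) and in the BKO-labelled library (y axis). Of these, 16 genes have counting intervals above 0 in both (red) and 11 below 0 in both (blue), and 103 have the same sign in both.

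Genes of the cell cycle were rare in fibroblast-like nuclei. Of 12 genes 2 could be counted, and *Top2a*, which marks dividing cells, had 1 UMI and 34 UMIs, the latter in 14 of 398 nuclei. Its log2 ratio of 2.92 has an interval of 0.34 to 8.26. Without the nucleus with the most UMIs in each library it had 0 and 28 UMIs, a ratio of at least 1.05. It had too few UMIs for a ratio without nuclei with 3 or more markers of another class, or without the 5% of nuclei with the most UMIs. Of 6 cell cycle inhibitors counted 5 were higher and 0 were 2-fold higher, and *Cdkn1a*, which encodes p21, was lower with 69.4 and 28.7 CPM, a ratio of -1.27 (-2.27 to -0.22).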

How the data were processed

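Nuclei of frozen iBAT were profiled with 10x Genomics 3' v3.1 chemistry. For each nucleus the authors deposited raw UMI counts of genes, made with Cell Ranger 5.0.0 according to the headers, and the submitters' processing notes name Trimmomatic, FastQC, Seurat and the build mm10. The treatment of intronic reads was not given in the sources used here. The lowest total was 500 UMIs per nucleus. Among 32285 genes, 38 symbols occurred more than once and were represented by their earliest entry. Gene positions came from RefSeq for GRCm38.p6, matched by symbol.

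The members, the comparison sets and the gene lists were chosen with earlier results of these data known. UMIs were summed over the fibroblast-like nuclei of each library. A CPM has an exact Poisson interval, a share an exact Clopper-Pearson interval and a log2 ratio an exact conditional interval, at 95%. A library at 0 UMIs was set to 3 UMIs to bound a ratio. Genes needed at least 20 UMIs in both libraries together for lists and at least 50 for the main count of all genes. For shares of nuclei with a UMI, nuclei were thinned to 1000 UMIs, which left out 69 of 161 and 55 of 398 fibroblast-like nuclei. Unthinned shares were, for the 2 libraries in turn, 41.6% and 76.4% for *Col1a1*, 4.97% and 26.1% for *Thbs1*, 9.94% and 31.4% for *Fgf10*, 10.6% and 59.8% for *Plin2*, 4.35% and 26.9% for *Ccl11*, 35.4% and 18.8% for *Lvrn*, and 14.3% and 85.2% for at least 2 immediate-early genes.

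Named genes were those of the rule, the 12 highest and 12 lowest ratios among genes with at least 100 CPM in 1 library and 50 UMIs in all, the 4 members with the most UMIs and the highest and lowest of each list, the 10 genes furthest above the comparison sets by the lower of the 2 libraries' ratios, and *Wtap*. The 12 at each end excluded rule genes, adipocyte markers and genes of mitochondrial DNA or of ribosomal proteins. *Fn1*, *Fbn1* and *Mgp* were named outside these criteria, from the values of the progenitor split, and no alternatives were run for them. Doublets were not called. Other settings were run, 13 fixed at the start and 2 chosen after seeing the data. Python 3.11.15, numpy 2.4.6 and scipy 1.17.1 were used, and the calculations were tested on simulated data.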

Additional observations from a re-analysis of the deposited data

How the results depend on the processing

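Alternatives that left a library at 0 UMIs give bounds and are not counted among the named genes. Of 53 named genes that differed by 2-fold or more with UMIs in both libraries, all 53 kept their direction under each alternative that gave a ratio, 45 stayed at 2-fold or more, and 8 fell under it, among them *Cebpa* (0.41), *F3* (0.81), *Timp3* (0.52) and *Pmepa1* (-0.94). The ratios of 15 shrank by over 1.5 times, among them *Btg2* (to 1.52), *Ccn1* (2.50), *Slit2* (1.32), *Vcan* (1.02) and *Fgf14* (-1.31). Of 116 named genes under 2-fold, 51 changed sign under at least 1 alternative. Among the 47 of them whose interval excluded 0, *Dclk1* and *Pparg* changed sign and 28, these 2 included, shrank by over 1.5 times, among them *Bmper* (to 0.48), *Fap* (0.46), *C3* (0.53), *Dcn* (0.21), *Slit3* (0.22), *Col4a1* (0.03), *Fabp4* (0.10), *Osmr* (-0.36) and *Vegfa* (-0.57). Of 24 lists, 8 had medians that stayed within 1.5 times under the alternatives run, fibrillar collagens, matrix proteases and immediate-early genes among them. The median of adipogenic regulators ranged from 0.02 to 0.38, of complement genes from 0.24 to 0.99, of chemokines and cytokines from 0.49 to 1.29, of interferon-responsive genes from 0.91 to 1.61, of interstitial progenitor genes from 0.11 to 0.94, of committed preadipocyte genes from 0.15 to 0.49 and of other collagens from 0.02 to 0.26. The median of YAP target genes, 0.17, turned to -0.04 over nuclei of at least 1000 UMIs and was 0.88 with the rule on thinned nuclei. Immediate-early genes ranged from 1.61 to 2.28. The share of fibroblast-like nuclei, in the flox/flox library and then the BKO-labelled library, was 0.790% and 2.28% with the rule on thinned nuclei, 0.948% and 3.76% with at least 4 rule genes, 2.19% and 10.7% among nuclei with at most 5% mitochondrial UMIs, and 2.10% and 5.79% among nuclei of at least 1000 UMIs. In the BKO-labelled library it was 3.94% with no excluded gene, 3.92% without the 5% of nuclei with the most UMIs, and 3.89% without nuclei with 3 or more markers of another class, an alternative chosen after seeing the data. Against 451 genes at least 2-fold higher and 114 lower, there were 1068 and 373 at 20 UMIs, 177 and 38 at 100 UMIs, 1559 and 946 with no filter beyond 1 UMI, 283 and 60 with the rule on thinned nuclei, 252 and 66 in the nuclei at or under the median share of adipocyte marker RNA, and 67 and 27 with each nucleus thinned to 500 UMIs. Without the 5% of nuclei with the most UMIs 241 were higher, and with the median of all genes set to 0 183 were lower. Thinning each nucleus left fewer genes to count, with 12 glycoproteins, 11 proteases, 7 chemokines and 10 immediate-early genes higher. No paired analysis was possible because each genotype had 1 library. Depth limits genes with few UMIs in the flox/flox library, such as *Junb*, *Ccl2* and *Mmp3*.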
